A study of Mus musculus with 29 samples.

Results

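The genes described here are 9 glycoproteins of the urothelial cell surface, listed by name with no threshold on a measured value: the membrane mucins Muc1, Muc4, Muc13, Muc15, Muc16 and Muc20, the Ly6 family proteins Psca and Ly6d, and the adhesion molecule Epcam. These genes and the lists set beside them were chosen with earlier results of these data known. Shares called among them are therefore descriptive and do not test a set. All 9 are among the 35199 genes of the deposited tables. The series holds 29 RNA-seq libraries of mouse bladder, and 21 of them were used. The first set is Gfp+ urothelial cells collected 4 days after tamoxifen, 4 control and 5 mutant libraries, all untreated. Mutants are labelled K5VP16;Pparg+/-: the Krt5 promoter drives a tamoxifen-inducible Cre in basal cells, which turns on a Pparg fused to the viral VP16 activator, together with Gfp, from the Rosa26 locus. The controls are labelled wild type, while the study names K5;mTmG mice for these cells, so both groups carry a Krt5-driven Cre and a Gfp reporter by its account. The second set is 12 laser-captured tumor libraries from mice given BBN (N-butyl-N-(4-hydroxybutyl)-nitrosamine, a bladder carcinogen) at 0.05% in the drinking water. They are labelled 5 months of BBN, with 4 months in their titles, and no age is given in the labels. By the study's account tamoxifen followed the first month of BBN and tumors were collected 4 months after it, and the basal tumors grew in VP16;Pparg fl/fl or K5;mTmG controls. They comprise 3 basal tumors labelled wild type and, from K5VP16;Pparg+/- mice, 3 luminal tumors and, out of mixed lesions, 3 luminal (top) and 3 basal-like (bottom) domains. Nothing in the labels says that libraries of a group are from separate mice, so p-values measure the spread between these libraries. Libraries are numbered within their group only to name them.

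Values are normalized counts, that is, estimated reads per gene after scaling of the libraries of a table to each other. They summed to between 36520193 and 41435665 per library in the 4-day table and to between 41697178 and 53904714 in the 3 tumor tables, and the reads behind them are not known. Between 13513 and 16579 genes per library had at least 10 normalized counts, with 13513 to 13796 in luminal tumors and 14584 to 15042 in basal tumors. Pparg itself, which the transgene encodes, lay at 9381 to 9999 in 4-day controls and at 6111 to 9032 in mutants (log2 fold change -0.36, adjusted p = 0.126). In the tumor table Pparg was at 13.0 to 126 in basal tumors and at 3579 to 8632 in luminal tumors. Basal markers (Krt5, Krt14, Trp63, Col17a1 and Cd44) and superficial cell markers (the uroplakins Upk1a, Upk1b, Upk2 and Upk3a with Krt20, Krt18 and Snx31) were all detected in both 4-day groups. Transcripts of 4 Y-linked genes summed to 9030.2 to 9177 in 3 of the 4-day controls, to 404 in control 1 and to 338 to 395 in the mutants, so that they divide these libraries nearly as genotype does. In tumor libraries the sum was 4764 to 8667.

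The luminal face of the urothelium is covered by uroplakins and by a coat of heavily O-glycosylated proteins. Membrane mucins contribute to it with long extracellular domains that are rich in serine and threonine and are dressed with O-linked sugars by Galnt and Gcnt enzymes. Psca (prostate stem cell antigen) and Ly6d are small proteins tethered to the outer leaflet by a glycolipid anchor. Epcam is a transmembrane adhesion protein of epithelia that interacts with claudins and is cleaved at the surface.

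In GRCm38 (GENCODE M21), Psca lies at chr15:74714839-74717069 on the plus strand and Ly6d at chr15:74762056-74763620 on the minus strand, 44986 bases apart. Epcam lies at chr17:87635979-87651129 on the plus strand. Of the mucins, Muc1 is at chr3:89229057-89233381 and Muc15 at chr2:110721340-110739527, both on the plus strand, and Muc16 is at chr9:18495455-18674530 on the minus strand. Muc4 at chr16:32735886-32782391 (plus) and Muc20 at chr16:32777419-32797435 (minus) overlap by 4973 bases, 627 of them exonic in both, and Muc13 is at chr16:33794037-33819934 (plus). The library kit does not mark strand, so reads within the overlap of Muc4 and Muc20 cannot be assigned to either gene with certainty.

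To set the genes side by side, values were divided by the length of the longest coding transcript, from 0.744 kb in Ly6d to 25.4 kb in Muc16. On this scale Ly6d stood highest in every group, with 184099.8 ± 17549 normalized counts per kb in 4-day controls (SD, n = 4) and 881421 ± 248310.1 in luminal tumors (SD, n = 3). Psca and Epcam followed, and the 6 mucins came after them in every group. In 4-day controls Epcam at 6129 ± 166 per kb and Psca at 5606 ± 2000.2 (SD, n = 4) did not differ beyond their spread, and in every other group the mean of Psca was above that of Epcam. Among the mucins in 4-day controls the mean was highest for Muc16, at 65.4 ± 73.3 per kb, then Muc15 at 20.3 ± 7.50 and Muc20 at 18.2 ± 13.6 (SD, n = 4), an order within the spread. Muc1, Muc13 and Muc4 were at 4.42 ± 3.42, 4.00 ± 2.78 and 0.0777 ± 0.155 per kb. In luminal tumors Ly6d and Psca were each up to 1.58% and 1.73% of all normalized counts of a library.

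The 4-day comparison asks how these genes differ between K5VP16;Pparg mutants and controls in Gfp+ urothelial cells 4 days after tamoxifen. Epcam and Muc20 were lower in K5VP16;Pparg mutants, Epcam at 0.615 times and Muc20 at 0.0476 times the control mean. Psca and Ly6d lay higher in every mutant than in any control, Psca at 6.16 times and Ly6d at 1.40 times the control mean, but neither passed the test. Of the 9 genes, 7 had enough counts to be tested, 0 were called higher and 2 were called lower, against 2.85% of all 16413 genes tested in this comparison (1.77% higher, 1.08% lower). Groups did not overlap for 2 tested members in each direction, against 4.67% of all genes higher and 4.51% lower. In both counts 1 of the 2 lower genes is Muc20, which entered the test through the controls alone and so had to differ. The median log2 fold change was 0.30 over the tested members and 0.00 over all genes.

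**Figure D1:**
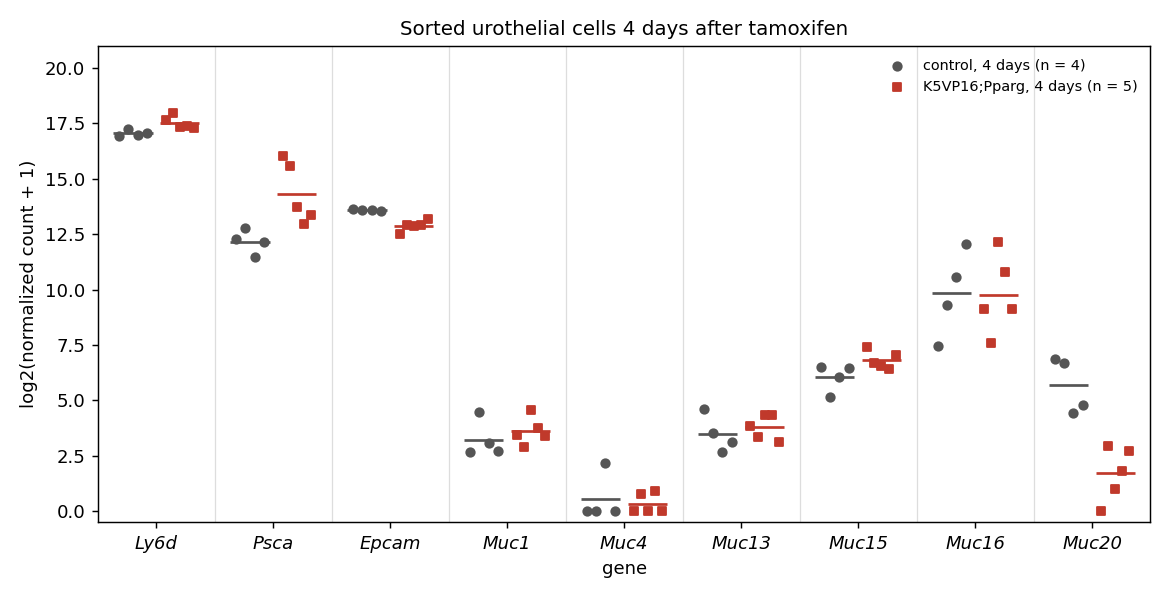
Log2(normalized count + 1) of the 9 genes in each of the 9 libraries collected 4 days after tamoxifen, for controls (n = 4) and K5VP16;Pparg mutants (n = 5), with library numbers running from left to right and a bar at the mean of each group. The mutants sit below all controls for Epcam and Muc20 and above all controls for Psca and Ly6d, and both groups spread widely for Muc16.

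Among the Ly6 proteins, Psca was at 4997, 6988, 2811 and 4489 normalized counts in controls 1 to 4 and at 68047, 48367, 13665, 7980.4 and 10476 in mutants 1 to 5. Mutants 1 and 2 stood far above the other 3, which were nearer to the controls, and the groups did not overlap. This gave a log2 fold change of 2.17 (SE 0.62, 95% CI 0.78 to 3.56, adjusted p = 0.0899), on the log2(normalized count + 1) scale used throughout. The summed markers of squamous epithelium were also highest in mutants 1 and 2, at 106216 and 101499.9, against 29886 to 50821 in the other mutants and 30281 to 66259 in controls, and the summed superficial markers were at 500352 and 412236 in these 2, against 246974 to 353697 in the other mutants and 203206 to 394841 in controls. Squamous markers differed in direction between the groups, since 2 of its 5 tested markers had fitted values above 0 and 3 below, with a median of -0.12. Their part in the level of Psca was not tested. Since these are bulk samples, a change in the number of cells that express a gene and a change in RNA per cell cannot be told apart.

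Ly6d was at 125561, 154565, 128752 and 139003 normalized counts in controls and at 208253, 255470.1, 165927, 170135 and 161760.0 in mutants. The lowest mutant was just above the highest control, and mutants 1 and 2 were again the highest. The log2 fold change was 0.47 (SE 0.19, 95% CI 0.04 to 0.90, adjusted p = 0.204).

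Epcam was the most even gene of the set among controls, with 12921, 12454, 12539.7 and 12095 normalized counts, a span of 1.07 times. Mutants were at 5901, 7731, 7538, 7844 and 9405, each below every control. The mean fell from 12502 ± 339 (SD, n = 4) to 7684 ± 1244 (SD, n = 5), a log2 fold change of -0.72 (SE 0.12, 95% CI -0.99 to -0.45, adjusted p = 0.0189). Summed fibroblast markers (Col1a1, Col1a2, Col3a1, Dcn, Lum and Pdgfra) were at 30652 to 217371 in mutants and at 11651 to 84707 in controls, with all 6 fitted values above 0 and Lum called higher (log2 fold change 2.70, adjusted p = 0.0303). Mutants 1, 2 and 5, with fibroblast sums of 84293, 30652 and 66749, lay within the control range of that sum and had Epcam at 5901, 7731 and 9405. Summed basal urothelial markers were at 97763 to 137499 in mutants and at 141693 to 177228 in controls, without overlap, but the 5 markers of this list differed in direction: fitted values were above 0 for 2 and below 0 for 3, with Cd44 called higher (log2 fold change 0.76, adjusted p = 0.0116) and Col17a1 lower (-1.34, adjusted p = 0.0315). Smooth muscle markers summed to 293 to 2213 in mutants and to 89.2 to 876 in controls, with all 5 fitted values above 0 and none called. The part of these lists in the level of Epcam was not tested. The Epcam call was lost without control 2, 3 or 4 (adjusted p = 0.0587, 0.0636 and 0.0511), at log2 fold changes of -0.72, -0.72 and -0.73. Against control 1 alone, the control that like the mutants was low in Y-linked transcripts, the value was -0.77 (adjusted p = 0.630, with the spread taken from the mutants alone), and in the table of 3 against 3 libraries it was -0.59 (adjusted p = 0.0806).

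Muc20, a short mucin known to associate with the Met receptor, was at 116, 103, 20.9 and 26.8 normalized counts in controls and at 0, 6.72, 1.02, 2.51 and 5.66 in mutants. All mutants were below the lowest control, and controls 1 and 2 were higher than controls 3 and 4. Its log2 fold change was -4.01 (SE 0.74, 95% CI -5.66 to -2.35, adjusted p = 0.0239). All 4 controls and 0 mutants reached the 10 normalized counts of the filter, so Muc20 entered the test through the controls alone and had to differ. At such low levels the size depends on the pseudocount (-4.36 with 0.5 and -2.89 with 5). The call was lost without control 1, control 2 or mutant 3 (adjusted p = 0.0569, 0.0828 and 0.0564, at -3.62, -3.67 and -3.83). Against control 1 alone, again with the spread of the mutants, Muc20 was at -5.17 (adjusted p = 0.437), and at -3.04 (adjusted p = 0.135) in the table of 3 against 3. Muc4, which overlaps it on the other strand and codes for a large membrane mucin known to bind Erbb2, was at 0, 0, 3.51 and 0 in controls and at 0, 0.711, 0, 0.884 and 0 in mutants and was not tested.

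Epcam and Muc20 were called at this time, Muc20 after it entered the test through the controls alone. The sequences before the starts of these 2 genes are shown, since regulators of a gene often bind there. They are the 250 bases before the transcription start in RefSeq (GRCm38.p6), which lists promoters for 6 of the 9 genes. Epcam is on the plus strand at chr17:87635729-87635978 and Muc20 on the minus strand at chr16:32797436-32797685, both 5′ to 3′ along the gene, and capitals mark ACCGGT, the core letters of grainyhead-like sites.
Epcam: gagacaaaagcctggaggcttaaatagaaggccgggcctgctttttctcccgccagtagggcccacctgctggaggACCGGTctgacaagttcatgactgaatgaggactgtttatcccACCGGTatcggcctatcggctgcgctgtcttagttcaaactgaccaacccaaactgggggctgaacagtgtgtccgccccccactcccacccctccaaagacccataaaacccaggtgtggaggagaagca
Muc20: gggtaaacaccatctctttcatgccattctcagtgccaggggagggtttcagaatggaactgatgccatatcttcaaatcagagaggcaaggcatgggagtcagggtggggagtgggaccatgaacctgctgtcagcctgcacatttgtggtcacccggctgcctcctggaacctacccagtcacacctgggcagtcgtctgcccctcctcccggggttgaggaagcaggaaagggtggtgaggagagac
Both strands were searched for 4 motifs. ACCGGT occurred 2 times before Epcam, was not found before the other 5 genes with an entry, and occurs in 1.86% of all 32851 promoters of this length. AACCGGTT, which contains it, is in 0.116% of promoters, AGATAA, the letters of a Gata site, in 9.99% and AGGTCANAGGTCA (the direct repeat of PPAR and RXR) in 0.0335%, and none of these was in the windows of the 6 genes. These are matches of letters in a short window, not binding. For Muc16 the bases after the listed start matched no transcript of the gene annotation, so the place of its window is uncertain.

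Of the other mucins, Muc15, a glycosylated membrane mucin, was at 89.8, 34.3, 66.0 and 87.2 normalized counts in controls and at 171, 101, 92.8, 85.0 and 133 in mutants. The groups overlapped only through mutant 4, and the log2 fold change was 0.78 (SE 0.34, 95% CI 0.02 to 1.55, adjusted p = 0.231). It was 0.48 without control 2, and as low as 0.32 under the other settings tried. Muc16, a very large membrane mucin known to bind mesothelin, ranged over 24.6 times among controls (176, 626, 1526 and 4331) and over 23.5 times among mutants (559, 193, 4526, 1762 and 561). Its log2 fold change was -0.10 (SE 1.03, 95% CI -2.40 to 2.21, adjusted p = 0.969), and without control 4 it was 0.65. With Y-linked transcripts as a covariate it was 2.29, a value that sets the mutants against control 1 alone, the only control low in these transcripts.

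Msln, which encodes mesothelin and marks mesothelium, was at 809, 3315, 6058 and 18037 in the same controls and at 11028, 2408, 19563, 20095 and 4181 in the mutants. The controls had the same order for both genes, as Msln and Muc16 were lowest in control 1 and highest in control 4, and mutant 2 was the lowest mutant for both. The 5 mesothelial markers (Msln, Lrrn4, Wt1, Bnc1 and Gpm6a) summed to 1470.1 to 26428 in controls and to 6871 to 39070 in mutants, none of them at 0 in all libraries of a group. Their part in the spread of Muc16 was not tested.

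Muc1 and Muc13, membrane mucins of glandular and gut epithelia, were near the filter of 10 normalized counts. Muc1 was at 5.30 to 21.3 in controls and 6.55 to 22.9 in mutants and was not tested. Muc13 was at 5.35 to 23.8 and at 7.70 to 19.4, with a log2 fold change of 0.30 (SE 0.47, 95% CI -0.73 to 1.34, adjusted p = 0.753). The value for Muc13 was -0.84 with Y-linked transcripts as a covariate, which again sets the mutants against control 1 alone.

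Among genes that act with the members, 1 of 28 tested enzymes of mucin-type O-glycosylation was called higher and 0 lower, a share of 3.57% that is near the 2.85% of all genes. It was Galnt6, which adds the first sugar of O-glycans and rose from 8261 ± 529.6 (SD, n = 4) to 14651 ± 2937 normalized counts (SD, n = 5, log2 fold change 0.81, adjusted p = 0.0214). The call of Galnt6 was lost without control 1, 2, 3 or 4 (adjusted p = 0.0521, 0.0628, 0.0726 and 0.0598, at 0.76, 0.83, 0.81 and 0.82). It was also lost in the table of 3 against 3 (0.81, adjusted p = 0.0988) and with Y-linked transcripts as a covariate (0.94, adjusted p = 0.317). The covariate fit sets the mutants against control 1, so the value against control 1 alone was the same, at 0.94. No gene was called among 10 other mucins, 22 further members of the Ly6 and uPAR family, 17 partners of Epcam (claudins, proteases and their inhibitors among them) and 14 partners of mucins. The medians of these 5 lists ran from -0.01 in the other mucins to 0.29 in the Ly6 and uPAR family, beside 0.00 over all genes.

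The tumor comparison asks how luminal tumors of K5VP16;Pparg mutants differ from the basal tumors of controls. Psca and Ly6d rose: luminal tumors had 17.7 times the mean of basal tumors for Psca and 5.33 times for Ly6d, with no overlap for either. Epcam overlapped between them, and Muc20 was listed at 0 in all 3 luminal tumors. Muc1 and Muc16 were high in single tumors of each kind, and Muc4 and Muc13 in a single basal tumor. Of 7 tested members 2 were called higher and 0 lower, against 2.2% of the 15357 genes tested here (1.26% higher, 0.938% lower). Without overlap were 2 members higher and 1 lower, against 9.98% and 11.6% of all genes, where the lower gene, Muc20, passed the filter with no luminal tumor at 10.

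**Figure D2:**
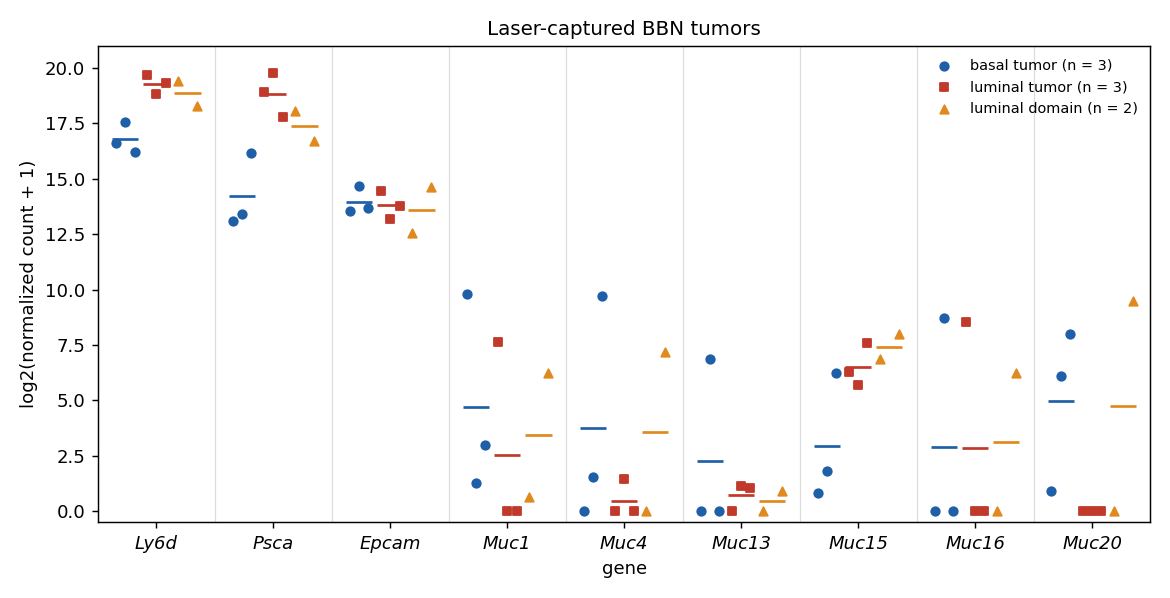
Log2(normalized count + 1) of the 9 genes in basal tumors (n = 3), luminal tumors (n = 3) and luminal domains (n = 2) of the tumor table, with library numbers running from left to right and a bar at each group mean. All luminal tumors are above all basal tumors for Psca and Ly6d, and most mucins are near 0 in some libraries of a group and high in others.

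Psca was at 8807, 10829.7 and 72447 normalized counts in basal tumors 1 to 3 and at 498318, 906324 and 227318 in luminal tumors 1 to 3. Basal tumor 3 was the high one of its group and still below the lowest luminal tumor. The log2 fold change was 4.62 (SE 0.83, 95% CI 2.75 to 6.49, adjusted p = 0.0356). The call was lost on leaving out basal tumor 1 or 2, luminal tumor 1 or 2 or luminal domain 1 or 2 (adjusted p = 0.119, 0.0697, 0.114, 0.122, 0.0553 and 0.0528, with log2 fold changes from 4.06 to 4.62), and held without basal tumor 3, at 5.58 (adjusted p = 0.0204), or luminal tumor 3. It was also lost under 3 of the 9 other settings tried (adjusted p up to 0.0896).

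Ly6d was at 99984, 193089 and 76125 normalized counts in basal tumors and at 838778, 469341 and 659212 in luminal tumors. The lowest luminal tumor was well above the highest basal tumor. This gave a log2 fold change of 2.49 (SE 0.53, 95% CI 1.29 to 3.68, adjusted p = 0.0491), close to the threshold. It was lost without basal tumor 1 or 3, luminal tumor 1 or 2 or luminal domain 1 or 2 (adjusted p = 0.145, 0.123, 0.138, 0.122, 0.0681 and 0.0697, with log2 fold changes from 2.20 to 2.71), and under 7 of the 9 other settings tried. With quantile normalization it was 1.68 (adjusted p = 0.174). In the 2 luminal domains of the same table Psca was at 276661 and 107129 and Ly6d at 700295 and 324440.5, above all 3 basal tumors for both.

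Most sums of cell type markers differed between these groups without overlap, while those of squamous markers overlapped. Summed superficial markers were at 150653 to 871127 in luminal tumors and at 4305 to 20094 in basal tumors, and basal markers were at 14061 to 201081 and at 294354 to 660773. Fibroblast markers summed to 212 to 17130 in luminal tumors and to 44454 to 66575 in basal tumors, and smooth muscle markers (Acta2, Myh11, Des, Actg2 and Cnn1, with Des at 0 in all 3 luminal tumors) to 11.6 to 1053 and to 4745 to 42943. Leukocyte markers summed to 552 to 1819 in luminal tumors and to 2554 to 7955 in basal tumors, and endothelial markers to 370.2 to 1053 and to 1234 to 2284, also without overlap. Of 5 tested leukocyte markers, 1 had a fitted value above 0 and 4 below, and 0 were called. Mesothelial markers summed to 67.4 to 385 in luminal tumors and to 394 to 15257 in basal tumors, with Gpm6a at 0 in both groups and Lrrn4 at 0 in basal tumors. Squamous markers summed to 110112 to 203553 in luminal tumors and to 51925 to 338355 in basal tumors, and were highest in basal tumor 3, the basal tumor with the most Psca. Of 8 tested squamous markers, 5 had fitted values above 0 and 3 below, with 1 called higher. The part of all these markers in the levels of Psca and Ly6d was not tested.

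Epcam was at 11928, 26392 and 13227 normalized counts in basal tumors and at 22192, 9294 and 14018 in luminal tumors. The groups overlapped, and the log2 fold change was -0.18 (SE 0.57, 95% CI -1.45 to 1.1, adjusted p = 0.904), an interval that reaches beyond 1 on the log2 scale in both directions. Its value was 0.18 without basal tumor 2 and 0.13 without luminal tumor 2.

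The mucins differed widely from tumor to tumor. Muc1 was at 903, 1.42 and 6.80 normalized counts in basal tumors and at 199.7, 0 and 0 in luminal tumors. Muc16 was at 0, 419 and 0 in basal tumors and at 370.2, 0 and 0 in luminal tumors. Muc1 was thus high in basal tumor 1, Muc16 in basal tumor 2, and both in luminal tumor 1. Their log2 fold changes were -2.14 (SE 2.83, adjusted p = 0.738) and -0.06 (SE 3.09, adjusted p = 0.993), with values of 0.43 for Muc1 without basal tumor 1 and 2.85 for Muc16 without basal tumor 2. Msln was at 14308, 63.1 and 6434 in the basal tumors, where the tumor with Muc16 was the one lowest in Msln. In luminal tumors 1 to 3 Msln was at 5.76, 384 and 6.28. In luminal domains 1 and 2 of the same table Msln was at 80.7 and 14229, and Muc16 at 0 and 73.5. The part of mesothelial cells in the level of Muc16 was not tested.

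Muc20 was at 0.851, 67.8 and 252 normalized counts in basal tumors and was listed at 0 in luminal tumors 1 to 3, while the luminal domains of the table had 0 and 722. Its fitted log2 fold change of -4.99 (SE 2.51, adjusted p = 0.330) depends on the pseudocount, since a group is listed at 0. Muc4 was at 0, 1.88 and 839 in basal tumors, at 0, 1.70 and 0 in luminal tumors and at 0 and 144 in the luminal domains, and was not tested. Basal tumor 3 and luminal domain 2 were the highest of their group for both Muc4 and Muc20, which overlap on the chromosome. Muc13 was at 0, 114 and 0 in basal tumors and at most 1.17 in luminal tumors, and was not tested.

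Muc15 was the mucin with the most even level in luminal tumors, at 76.6, 50.7 and 189.6 normalized counts, against 0.755, 2.47 and 74.6 in basal tumors. Basal tumor 3 lay within the luminal range, and the log2 fold change was 3.57 (SE 1.57, 95% CI 0.04 to 7.09, adjusted p = 0.268). With 1 library left out it ran from 2.50 (without basal tumor 1) to 5.21 (without basal tumor 3).

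Among the lists around the members, 3 of 27 tested O-glycosylation enzymes were called higher in luminal tumors and 1 lower (14.8% in all, against 2.2% of all genes). The lower gene, St6galnac6, entered the test only through the groups where it is high. The 3 higher ones stand against 1.26% of all genes called higher. With 1 library left out the list had 0 to 2 calls, and under the 9 other settings 1 to 4. Gcnt3, which builds branched O-glycan cores in mucin-secreting epithelia, rose from 31.7 ± 35.7 to 2784 ± 1815 normalized counts (SD, n = 3 each; log2 fold change 6.76, SE 0.88, adjusted p = 0.0184). Gcnt1, which makes core branches in many tissues, and Galnt4, which starts O-glycans, rose by 2.92 (adjusted p = 0.0494) and 2.74 (adjusted p = 0.0364). St6galnac6, a sialyltransferase, fell from 179.6 ± 140.4 to 1.56 ± 1.80 normalized counts (SD, n = 3 each), with a log2 fold change of -6.01 (adjusted p = 0.0494). Its highest luminal tumor was at 3.53, so it passed the filter of 10 through the groups where it is high and the size of the fall depends on the pseudocount. It was at -4.48 with a pseudocount of 5 and at -4.10 with 5 luminal libraries pooled, and the call was lost under 6 of the 9 other settings (adjusted p up to 0.191). Under the same 9 settings Gcnt1 lost the call in 6, Galnt4 in 3 and Gcnt3 in 0 (adjusted p up to 0.0862, 0.0705 and 0.0450). Of these 4, Gcnt1 and St6galnac6 lost the call with any 1 of the 8 libraries left out (adjusted p from 0.0502 to 0.190 and from 0.0629 to 0.160), Galnt4 with 6 of them and Gcnt3 with 3 of them (up to 0.126 and 0.0879).

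Parm1, a mucin-like membrane protein, was the only called gene of 9 other mucins tested and rose from 822 ± 327 to 8175 ± 3866 normalized counts (SD, n = 3 each; log2 fold change 3.26, SE 0.53, adjusted p = 0.0292). The median over those 9 was -2.63, beside -0.11 over all genes. Spint1, an inhibitor of the surface protease St14, was the called gene of 17 Epcam partners (2.45, adjusted p = 0.0368), and Lgals3, the galectin that binds mucin sugars, that of 15 mucin partners (2.13, adjusted p = 0.0419). None of the 31 tested genes of the Ly6 and uPAR family beyond Psca and Ly6d was called, with a median of 0.71. In the full fit these are single calls in short lists (11.1%, 5.88% and 6.67% of the genes tested for Parm1, Spint1 and Lgals3, against 2.2% of all genes). With 1 library left out, calls ran from 0 to 5 in the other mucins and from 0 to 4 in the Epcam partners. They ran from 0 to 3 in the mucin partners and from 0 to 1 in the Ly6 and uPAR family. The highest counts came without luminal tumor 3. Parm1, Spint1 and Lgals3 lost the call in 4, 6 and 7 of the 8 fits with a library left out (adjusted p up to 0.119, 0.133 and 0.137). Under the 9 other settings they lost it in 2, 4 and 5 (adjusted p up to 0.0723, 0.119 and 0.116).

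The luminal domains of mixed lesions were compared with the same 3 basal tumors in a table of their own. Psca at 7.02 times, Ly6d at 4.79 times and Muc15 at 7.32 times the mean of basal tumors were higher in every luminal domain than in any basal tumor, and none of the 3 passed the test. Epcam, Muc1, Muc16 and Muc20 overlapped. Of 7 tested members 0 were called, against 2.53% of the 14921 genes tested (1.7% higher, 0.824% lower), and 3 tested members lay higher without overlap, against 14% of all genes (12.8% lower). At an unadjusted p under 0.05 there were 3 of the 7 tested members and 3072 of all 14921 genes. The basal tumors are shared with the comparison above, so the 2 are not independent.

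Psca was at 9239.6, 11139.5 and 75147 normalized counts in basal tumors and at 294510.3, 115523 and 260943 in luminal domains 1 to 3. Domain 2 was the lowest domain and basal tumor 3 the highest basal tumor. The difference was 3.39 on the log2 scale (SE 0.79, 95% CI 1.56 to 5.21, adjusted p = 0.0721), and without basal tumor 3 it was 4.35 (adjusted p = 0.0240). It was not called in the other 5 fits with a library left out, with adjusted p from 0.118 to 0.209 and values down to 2.84 without basal tumor 1. Ly6d was at 104806, 198452 and 78899 in basal tumors and at 744866, 349574 and 735000.1 in luminal domains. Its log2 fold change was 2.29 (SE 0.53, 95% CI 1.06 to 3.51, adjusted p = 0.0711), and 2.66 without basal tumor 2 (adjusted p = 0.0463), while the other 5 such fits gave adjusted p from 0.129 to 0.200.

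Muc15 was at 0.782, 2.51 and 76.4 normalized counts in basal tumors and at 120.4, 269 and 194 in luminal domains. Every domain was above every basal tumor, with a log2 fold change of 4.56 (SE 1.56, 95% CI 0.96 to 8.17, adjusted p = 0.161), which ran from 3.49 without basal tumor 1 to 6.22 without basal tumor 3. Epcam was at 12566, 27262 and 13778 in basal tumors and at 6367, 27662 and 19269 in luminal domains, a log2 fold change of -0.16 (SE 0.56, 95% CI -1.45 to 1.13, adjusted p = 0.899). Luminal domain 1 had the least Epcam of these 6 libraries.

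Luminal domain 1 also lacked the variable mucins. Muc1 was at 0.611, 83.3 and 62.3 normalized counts in domains 1 to 3, Muc16 at 0, 145 and 308, and Muc20 at 0, 782 and 117. Muc4 was at 0, 123 and 0. The log2 fold changes against basal tumors were -0.41 (SE 2.49, adjusted p = 0.942) for Muc1, 1.95 (SE 3.10, adjusted p = 0.765) for Muc16 and 0.46 (SE 2.71, adjusted p = 0.940) for Muc20. Muc4 and Muc13 were not tested, and Muc13 was at most 1.07 in the domains. Summed superficial markers were at 117715 to 502721 in the domains and at 4528 to 20737 in the basal tumors, and basal markers at 168986 to 273877 and at 318350 to 705768, both without overlap. The domains had 5011 to 31289 summed fibroblast markers, against 45948 to 70263 in the basal tumors, and 1032 to 1622 summed smooth muscle markers against 4930 to 45206, with Cnn1 at 0 in all 3 domains. Domain 2 was highest in mesothelial markers (15436, against 107 and 822), and in Muc20 and Muc4. The part of all these markers in the differences of Psca, Ly6d and the mucins was not tested.

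The called genes of the lists were Gcnt3 (log2 fold change 6.55, adjusted p = 0.0258) of 26 tested glycosylation enzymes, Parm1 (3.14, adjusted p = 0.0239) of 9 other mucins, Spint1 (2.83, adjusted p = 0.0239) of 17 Epcam partners and Lgals3 (1.97, adjusted p = 0.0466) of 15 mucin partners, all higher in luminal domains. As shares of the lists these are 3.85%, 11.1%, 5.88% and 6.67%, against 2.53% of all genes, with a single call in each. None of 28 genes of the Ly6 and uPAR family was called. The list medians were 0.46, -0.51, 1.06, 0.60 and 1.02 in this order, beside 0.01 over all genes. The 4 genes lost the call with 4, 4, 3 and 5 of the 6 libraries left out in turn (adjusted p up to 0.128, 0.119, 0.121 and 0.156). Under the 7 other settings they lost it in 0, 1, 1 and 4 (adjusted p up to 0.0474, 0.0713, 0.0750 and 0.123). Called Epcam partners ran from 0 to 5 with 1 library left out, with 5 without basal tumor 2. Calls in the Ly6 and uPAR family ran from 0 to 2, with 2 without basal tumor 3.

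Within mixed lesions, basal-like domains were set against luminal domains. Psca was lower in the basal-like domains, at 0.433 times the mean of luminal domains, but the groups overlapped and the difference did not pass the test. Ly6d and Epcam overlapped between the groups, and Muc15 was present in all 6 libraries. Of 7 tested members 0 were called and 0 lay without overlap, where 0% of all 14874 genes were called, 5.62% were higher without overlap and 5.14% lower. At an unadjusted p under 0.05 there were 757 genes, of which Psca was the only member, and 20 genes but no member were called without a trend of the variance with the level. The luminal domains are those of the comparison with basal tumors, and the labels do not tie a luminal to a basal-like domain of the same lesion. The library numbers in the table headers are consecutive for luminal domain 1 and basal-like domain 1, and likewise for 2 and 3. The deviations of these pairs from their group means correlated across genes (Pearson r of 0.363, 0.352 and 0.330 over 14874 genes, which are not independent), against -0.205 to -0.114 for the 6 other combinations. Deviations within a group sum to 0 for each gene, so positive pairs force the other combinations to be negative on balance. Because of the positive values, a fit with these pairs as a block was added after the data were seen. In it 1 gene (0.00672% of those tested), no member, was called.

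**Figure D3:**
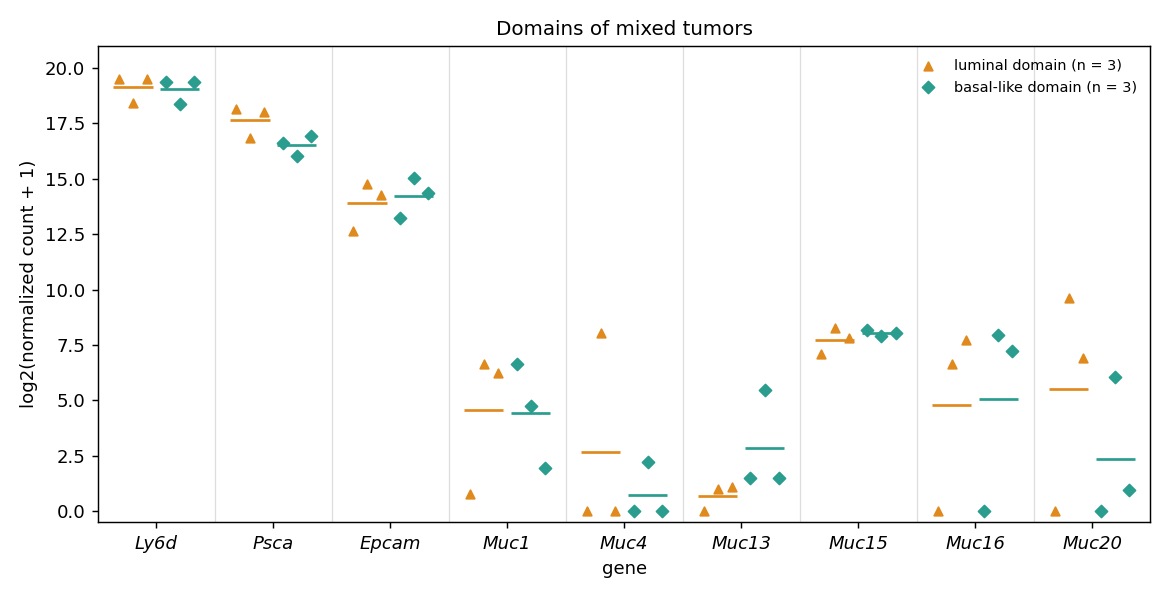
Log2(normalized count + 1) of the 9 genes in luminal domains (n = 3) and basal-like domains (n = 3) of mixed tumors, with library numbers running from left to right and a bar at each group mean. Psca, Ly6d, Epcam and Muc15 overlap between the groups, and Muc1, Muc4, Muc16 and Muc20 reach 0 or near 0 in at least 1 library of a group.

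Psca was at 293468, 116594 and 263122 normalized counts in luminal domains 1 to 3 and at 101449.8, 66707 and 123577 in basal-like domains 1 to 3. Only basal-like domain 3 reached into the luminal range, above luminal domain 2, while in each of the 3 pairs of consecutive numbers the basal-like domain was lower. The log2 fold change was -1.14 (SE 0.43, 95% CI -2.14 to -0.14, adjusted p = 0.935 by limma). In the paired fit the interval was -1.55 to -0.74 around the same value (SE 0.17, adjusted p = 0.143). Summed superficial markers were at 120070.0 to 505616 in luminal and at 34471 to 123048 in basal-like domains, and fibroblast markers at 5225 to 32313 and at 13859 to 104068. Basal markers were at 177096 to 283081 in luminal and at 253955 to 458246 in basal-like domains, with fitted values above 0 for all 5. Their part in the level of Psca was not tested.

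Ly6d was at 739464, 351501 and 738375 normalized counts in luminal domains and at 672566, 335946 and 687993 in basal-like domains. In each group domain 2 was the lowest, and the log2 fold change was -0.10 (SE 0.52, 95% CI -1.30 to 1.09, adjusted p = 0.990; paired 95% CI -0.45 to 0.25, adjusted p = 0.820). Epcam was at 6433, 28307 and 19699.9 in luminal domains and at 9641, 33957 and 20863 in basal-like domains. Domain 1 was the lowest and domain 2 the highest of both groups, with a log2 fold change of 0.31 (SE 0.62, 95% CI -1.12 to 1.74, adjusted p = 0.986; paired 95% CI -0.04 to 0.66, adjusted p = 0.439). In each pair Ly6d was lower and Epcam higher in the basal-like domain.

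Muc15 was at 136, 308 and 222 normalized counts in luminal domains and at 287, 238 and 263 in basal-like domains, within a narrower span in the latter (log2 fold change 0.31, SE 0.61, adjusted p = 0.985). Muc13 was at 0, 0.984 and 1.1 in luminal domains and at 1.83, 43.8 and 1.87 in basal-like domains. Only basal-like domain 2 was over 10, and the gene was not tested. Muc20 was at 0, 797 and 119 and at 0, 65.2 and 0.937 (log2 fold change -3.18, SE 2.65, adjusted p = 0.951), and Muc4 was at 261 in luminal domain 2 and at most 3.67 elsewhere. Muc1 was at 0.715, 98.8 and 73.8 in luminal and at 97.8, 25.6 and 2.86 in basal-like domains, and Muc16 at 0, 100.3 and 213 and at 0, 243 and 150.4. Neither was near the threshold (adjusted p = 0.998 for both). None of the tested genes of the 5 lists around the members was called.

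**Figure D4:**
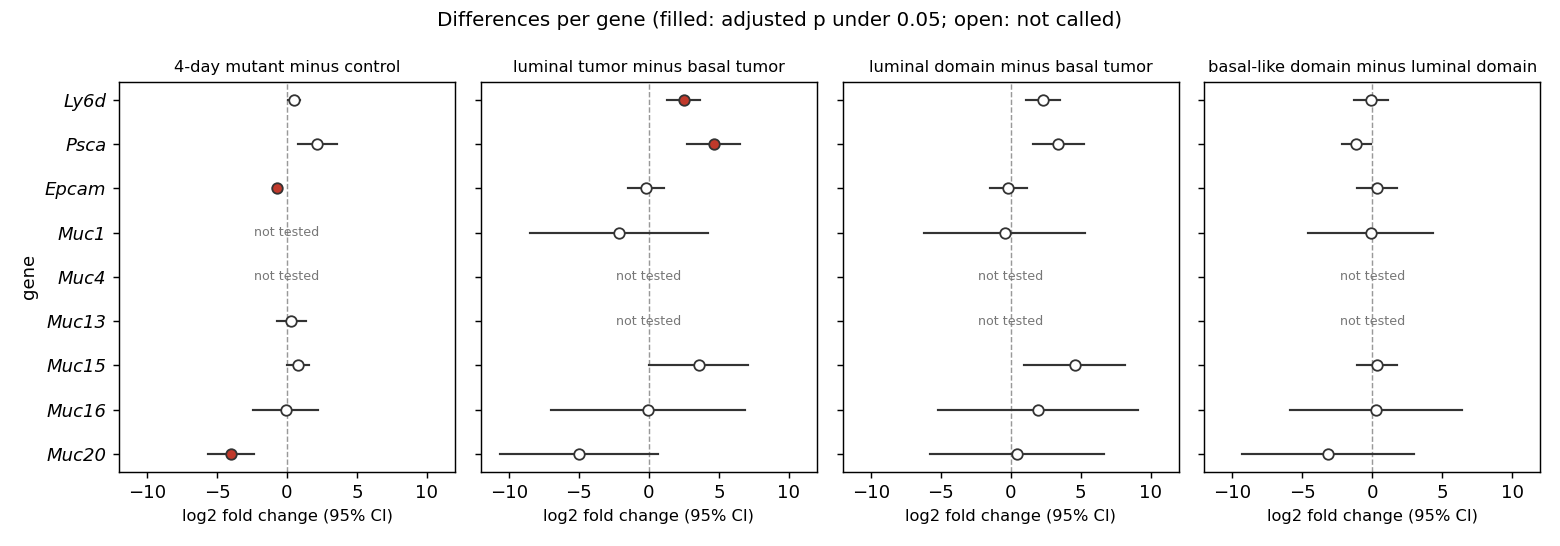
Log2 fold change with its 95% confidence interval for each tested gene in the 4 comparisons, filled where the adjusted p is under 0.05. Epcam and Muc20 are filled at 4 days and Psca and Ly6d in luminal against basal tumors. Muc20 entered the 4-day test through the controls alone. The intervals of Muc1, Muc16 and Muc20 in tumors span several log2 units on either side of the estimate.

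Set side by side, each comparison's own log2 fold changes for Psca were 2.17, 4.62, 3.39 and -1.14, for Ly6d 0.47, 2.49, 2.29 and -0.10, for Muc15 0.78, 3.57, 4.56 and 0.31, and for Epcam -0.72, -0.18, -0.16 and 0.31, in the order of the comparisons given here. The last 3 share libraries. Deposited values of the same library differ between tables, mostly by 0.991 to 1.17 times from the tumor table to that of luminal domains and basal tumors, but by 1.88 to 1.97 times for Muc16 and by 0.817 to 0.850 times for Muc4, so levels of these 2 mucins hold within a table only.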

How the data were processed

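The authors quantified reads with kallisto (0.44.0), summed transcripts to genes and deposited the normalized count signal of DESeq2 (1.18), with each table normalized alone. The study names mm10 for alignments behind its heatmaps, while the build of the kallisto index is not given in the sources used here. Deposited fold changes and p-values of the authors' own comparisons were not used. Nor were 8 columns of wild type bladders with or without 1 month of BBN, since their names do not tell the groups apart. Reads could not be recovered, so no count test was run.

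Here, log2(normalized count + 1) was fitted with limma (3.58.1, R 4.3.3; lmFit, eBayes with a trend) for genes with at least 10 normalized counts in as many libraries as the smaller group holds. P-values are two-sided and adjusted by Benjamini-Hochberg over all genes tested, with calls at 0.05. Luminal and basal tumors were fitted with 2 luminal domains of the same table, which share the estimate of spread. Members and lists were chosen with earlier results of these data known. All 9 members are named, and genes of the lists where called. The fit was tested on simulated data. Gene positions are from GENCODE M21. Alternatives were other pseudocounts, filters, scalings, variance settings and sets of libraries, and leaving out each library.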

Additional observations from a re-analysis of the deposited data

Results flagged for a closer look

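Muc4 in 4-day controls stood out by a single library, at 3.51 normalized counts in control 3 and 0 in the other 3. Over 18 groups of members checked for such gaps, chance alone flags about 1 in 20.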

How the results depend on the processing

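A replicate block, added after the data were seen, was possible for the domains only, from consecutive header numbers and not from the labels. It called 1 gene, against 0 without it, and 0 members in either fit, with adjusted p = 0.143 for Psca. For the other comparisons no paired analysis was run, since they set mutant mice against control mice and the labels name no pairs. Depth in reads is unknown, so values near 0 have no counting interval. The cause of the changes below was not tested. At 4 days, 1 member was called with a minimum of 50 (Muc20 was no longer tested), and 0 in the table of 3 against 3, with Y-linked transcripts as a covariate, or with only libraries without them. Of all genes, 467 were called (290 higher, 177 lower), against 270 higher and 287 lower after quantile normalization, 269 without a trend, 147 in the table of 3 against 3, 26 with the covariate and 8 in libraries without Y-linked transcripts. The libraries without Y-linked transcripts include 1 control, so the spread there is that of the mutants. With the covariate or in these libraries alone, fits that both set the mutants against control 1, Muc13 was at -0.84 and Muc16 at 2.29.

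For luminal against basal tumors, 1 member was called with a pseudocount of 5, a minimum of 50, quantile normalization or upper-quartile scaling, and 0 with no filter, no trend or only the 6 libraries. Of all genes, 338 were called, against 52 with no filter, 142 without a trend, 142 in the 6 libraries and 513 with 5 luminal libraries pooled. Muc16 was at 0.12 after quantile normalization and 0.046 with the pooled libraries. For luminal domains, 377 genes were called (254 higher, 123 lower), against 144 with no filter, 107 without a trend and 179 higher and 134 lower after upper-quartile scaling. For basal-like domains 20 genes were called without a trend, and Ly6d was at 0.47 after quantile normalization. The median of all genes moved from -0.11 to 0.02 with quantile normalization in tumors and from 0.01 to -0.14 with upper-quartile scaling in luminal domains.

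Leaving out 1 library gave 0 to 2 members and 129 to 596 genes called at 4 days, 0 to 2 and 3 to 813 in luminal tumors, 0 to 1 and 0 to 467 in luminal domains, and 0 of either in basal-like domains. Ranges that crossed 0 were -0.89 to 0.65 for Muc16 at 4 days; in luminal tumors -0.50 to 0.18 for Epcam, -4.69 to 0.43 for Muc1 and -2.90 to 2.85 for Muc16; in luminal domains -0.60 to 0.46 for Epcam, -2.13 to 2.17 for Muc1 and -1.60 to 3.21 for Muc20; and in basal-like domains -0.32 to 0.80 for Epcam, -0.46 to 0.24 for Ly6d, -2.0 to 1.13 for Muc1 and -2.14 to 2.79 for Muc16. Without a luminal domain the tumor fit holds 1 such library, assumed to vary like the others. The Y-linked settings were not run on tumors, since all tumor libraries have these transcripts.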
